A study of Mus musculus with 7 samples.

Results

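Mesoderm, endoderm and trophectoderm markers are genes that identify the lineages an embryonic stem cell can enter other than the neural one. The 39 genes, 17 for mesoderm, 11 for endoderm and 11 for trophectoderm, were chosen with earlier results of these data known. All 39 were found by symbol among the 21937 genes in the authors' deposited table. In early development T, Eomes and Mixl1 mark the primitive streak, from which mesoderm and definitive endoderm arise. Gata4, Gata6 and Sox17 drive endoderm, and Cdx2, Elf5 and Tcfap2c (the table's symbol for Tfap2c) maintain the trophoblast that builds the placenta. Embryonic stem cells carry low amounts of many of these RNAs, so they bear on whether other fates move along with the neural one.

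RNA was sequenced from A2lox mouse embryonic stem cells of 129/Ola background, a line with a doxycycline-inducible transgene, here NeuroD1, a basic helix-loop-helix factor of developing neurons. The 2 uninduced libraries came from cells without doxycycline, and the 2 induced libraries from the same line given doxycycline at 500 ng/ml for 48 h. Both groups grew feeder-free in serum and LIF after passage off inactivated fibroblasts. All values are group means of normalized reads, with the authors' fold changes and p-values, because the values per library could not be tied to sample labels; the spread between libraries is therefore not given. The labels do not state whether libraries within a group were separate cultures, so a p-value may cover technical spread alone. A doxycycline control lacking the transgene was not among the samples, so what the drug did and what NeuroD1 did cannot be told apart.

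Neurod1 rose 9.98-fold, from a mean of 438 to one of 4371 normalized reads, in the authors' deposited table (adjusted p = 4.5e-274). Neurod1 is the induced gene itself. Of 5 other neuron markers (Tubb3, Dcx, Map2, Elavl3 and Elavl4) 5 rose, and their summed mean went from 1634 to 14660 reads in the authors' deposited table. Of 5 stem cell markers (Pou5f1, Nanog, Sox2, Zfp42 and Esrrb) 4 fell and 0 rose, with a summed mean of 31698 before and 20136 after induction in that table. Of 9 fibroblast markers 2 rose (Col3a1 and Pdgfrb), 2 fell (Thy1 and Dcn) and 5 did not pass, with summed means of 2788 and 3485. Among all genes with a p-value 19.1% rose and 16.4% fell, and the fibroblast shares, 22.2% each way, were not far from these. By the higher of their 2 group means, the neuron and stem cell markers all lay above 100 reads. Of all genes at 100 to 1000 reads 24.7% rose and 20.5% fell, and at 1000 or more 27.8% rose and 27.6% fell. Group means summed to 17303851 and 17359374 normalized reads over all genes.

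A total of 8 lineage markers passed the test. Hand2, Kdr and Nkx2-5 rose among the mesoderm genes, Dab2 and Gata4 rose among the endoderm genes, and Krt7, Tcfap2c and Tead4 fell among the trophectoderm genes. Of the 37 members with a p-value from the authors' DESeq test, 5 rose (13.5%) and 3 fell (8.11%) at an adjusted p of 0.05, and 29 did not pass. Among all 18283 genes with a p-value 19.1% rose and 16.4% fell. The rises were 18.8% of the mesoderm and 18.2% of the endoderm members, close to that share of all genes. Further marker lists of the same lineages, given below, each held both rises and falls. Msgn1 and Tpbpa were listed at 0 in both groups and had no p-value. In RNA from whole cultures, fewer cells of a type and less RNA per cell cannot be told apart.

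**Figure D1:**
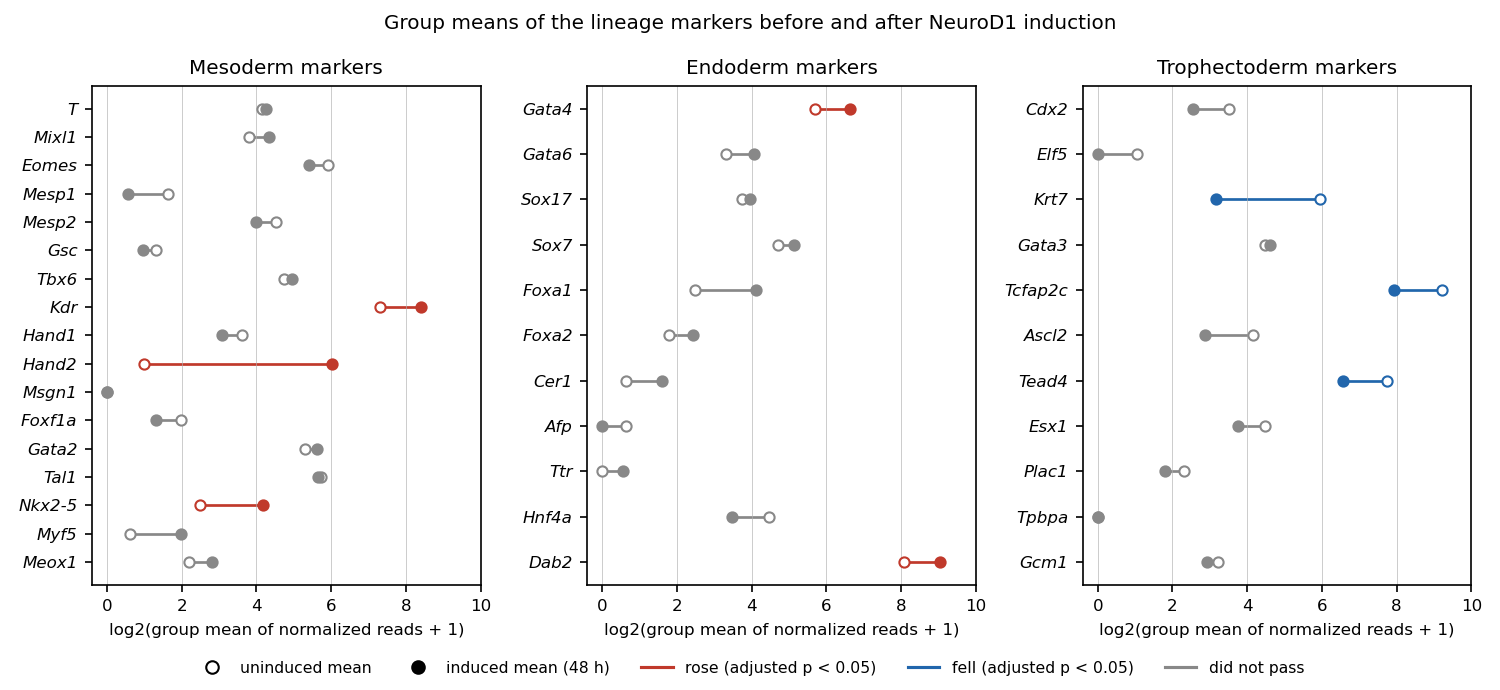
Group means of the 17 mesoderm, 11 endoderm and 11 trophectoderm markers, as log2 of normalized reads plus 1 (x axis). Open circles are uninduced and filled circles induced means, with no error since each is the authors' mean over a group; the 5 red genes rose, the 3 blue genes fell and grey genes did not pass.

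Most members were weakly expressed. Of the 39 genes 35 had both group means below 100 normalized reads and 14 had both below 10. The level set how often any gene passed the test. Among all genes whose higher mean was below 10 reads, 19 of 3592 passed (0.529%), and 0 of 12 members did. Between 10 and 100 reads 26.7% of 3418 genes passed, beside 4 of 21 members. Between 100 and 1000 reads 45.2% of 6705 genes passed, and Kdr, Dab2, Tcfap2c and Tead4, the 4 members at that level, passed. A change in the 12 least expressed members was thus rarely callable at this read level, and their p-values do not show that they stayed the same.

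**Figure D2:**
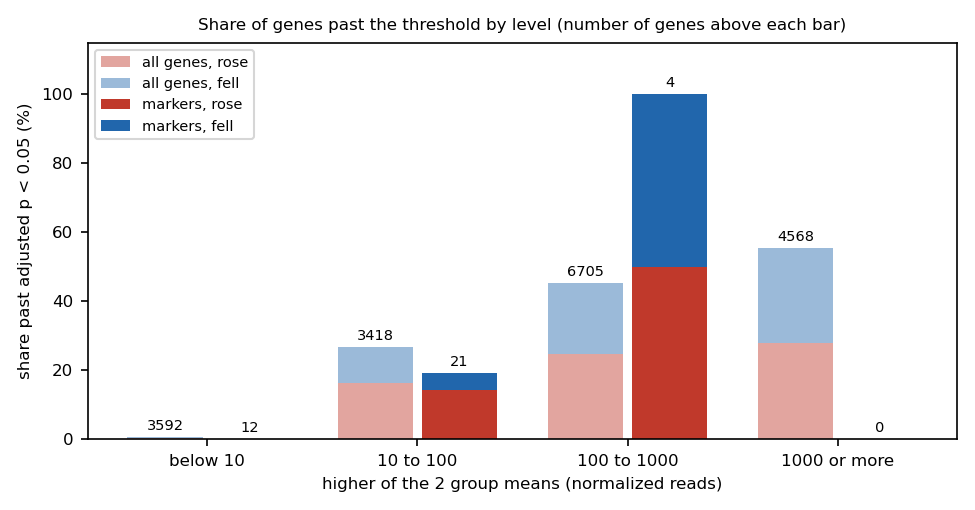
Share of genes past an adjusted p of 0.05 (y axis, percent) by the higher of the 2 group means (x axis, normalized reads), split into rises (red) and falls (blue), for all genes (pale) and for the markers (dark). Numbers above bars are genes; 0 of 12 markers passed below 10 reads, 4 of 21 between 10 and 100, and 4 of 4 between 100 and 1000.

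Genes of the primitive streak did not pass. T, the brachyury gene, had means of 16.7 before and 18.0 after induction in the authors' deposited table (adjusted p = 1). Its streak companion Mixl1, a homeobox gene, had 12.9 and 19.4 reads (adjusted p = 0.57), and Eomes, a T-box gene of streak and trophoblast, had 59.3 and 41.2 reads (adjusted p = 0.25) in the authors' deposited table. The organizer gene Gsc was at 1.47 and 0.953 reads there. The means of these 4 genes lay on either side, higher after induction for T and Mixl1 and lower for Eomes and Gsc.

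Early and paraxial mesoderm genes lay close to the floor. Mesp1 and Mesp2, which specify cardiac and somitic mesoderm, had means of 2.07 and 0.477 reads and of 21.8 and 15.0 reads, respectively, before and after induction, with authors' adjusted p of 0.81 and 0.60. Tbx6, a selector of paraxial mesoderm, had 25.6 and 30.1 reads (adjusted p = 0.81) in the authors' deposited table, and Msgn1, its target in mice, was listed at 0. The somite gene Meox1 had 3.61 and 5.98 reads and the muscle determination gene Myf5 0.537 and 2.95 reads, with authors' adjusted p of 0.79 and 0.56. No gene of this group passed, and only the means of Mesp2 and Tbx6 exceeded 10 reads.

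Hand2 had the largest change of the 39 genes on the log2 scale. Hand2 encodes a basic helix-loop-helix factor of heart, limb and branchial arch mesenchyme, which is also made by sympathetic and enteric neurons. In the authors' deposited table it went from 1.00 to 63.5 normalized reads (63.5-fold, adjusted p = 1.2e-16). Its change of 5.01 on the scale of log2 of the mean plus 1 lay at percentile 99.75 of all genes with a p-value. The fold rests on an uninduced mean near 1 read, so its size is uncertain while the induced level is not near 0. Its paralogue Hand1, a gene of trophoblast giant cells and lateral mesoderm, had 11.3 and 7.50 reads (adjusted p = 0.70) in the authors' deposited table. The difference between the paralogues was not tested. In the GENCODE M21 annotation an exon of the antisense gene Hand2os1 overlaps Hand2, and whether the counting used strand is not given in the sources used here.

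The other cardiovascular genes split. Kdr, the main VEGF receptor and a marker of blood and vessel precursors, went from 158.6 to 337 reads (2.12-fold, adjusted p = 0.026) in the authors' deposited table, at percentile 90.77 of change. Nkx2-5, a homeobox gene of heart precursors, went from 4.61 to 17.1 reads (3.71-fold, adjusted p = 0.048) by the authors' test. Both calls were lost at an adjusted p of 0.01. The mesenchyme gene Foxf1a had 2.93 and 1.47 reads, and the blood and endothelial regulators Gata2 and Tal1 had 38.3 and 48.3 and 51.8 and 49.2 reads, with authors' adjusted p of 0.89, 0.62 and 0.98. Gata2 is used by spinal interneurons as well as by blood. Over the 16 mesoderm members with a p-value, 3 rose (18.8%, beside 19.1% of all genes) and 0 fell (beside 16.4%). Their median change was 0.17 (log2 of mean plus 1), ranging from -1.06 for Mesp1 to 5.01 for Hand2, beside a median of -0.0094 for all genes. At a minimum mean of 50 the mesoderm median turned to -0.073. The neuron markers other than Neurod1, of which 5 of 5 rose, and the fibroblast markers, of which 2 of 9 rose and 2 fell, were measured in the same libraries, and the part of such cells in these values was not tested.

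NeuroD1 binds E-boxes, short sites of the form CANNTG. Factors of its kind favour CAGATG, which was searched on both strands. Another E-box, CAGCTG, reads the same on either strand. The 250 bases before each annotated start are shown for the members that passed and have an entry in the promoter table, 6 windows in all, so that the letters can be seen beside the values. Hand2, Kdr, Nkx2-5 and Dab2, which has 2 listed starts, rose, and Krt7 fell. Sequences are from RefSeq (GRCm38.p6, a later build than the authors' mm9), 5′ to 3′ on the strand of the gene, with every CANNTG in capitals. The window of Hand2 is chr8:57320733-57320982 (plus strand), that of Kdr chr5:75978456-75978705 (minus strand), that of Nkx2-5 chr17:26841566-26841815 (minus strand), those of Dab2 chr15:6299539-6299788 and chr15:6386498-6386747 (plus strand) and that of Krt7 chr15:101412153-101412402 (plus strand).
Hand2: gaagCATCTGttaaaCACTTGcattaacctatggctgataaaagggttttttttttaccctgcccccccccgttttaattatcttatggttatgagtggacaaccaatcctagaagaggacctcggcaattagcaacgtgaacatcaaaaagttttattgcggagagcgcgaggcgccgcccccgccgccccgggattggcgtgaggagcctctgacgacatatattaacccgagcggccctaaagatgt
Kdr: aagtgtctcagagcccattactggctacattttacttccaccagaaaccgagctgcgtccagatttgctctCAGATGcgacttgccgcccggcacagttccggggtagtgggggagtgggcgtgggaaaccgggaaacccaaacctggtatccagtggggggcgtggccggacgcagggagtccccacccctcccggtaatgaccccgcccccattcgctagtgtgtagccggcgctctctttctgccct
Nkx2-5: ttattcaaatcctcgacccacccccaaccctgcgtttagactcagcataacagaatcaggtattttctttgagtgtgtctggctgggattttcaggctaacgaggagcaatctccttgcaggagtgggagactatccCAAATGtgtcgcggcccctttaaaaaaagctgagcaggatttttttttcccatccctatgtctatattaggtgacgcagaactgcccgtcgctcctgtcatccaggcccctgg
Dab2 (first start): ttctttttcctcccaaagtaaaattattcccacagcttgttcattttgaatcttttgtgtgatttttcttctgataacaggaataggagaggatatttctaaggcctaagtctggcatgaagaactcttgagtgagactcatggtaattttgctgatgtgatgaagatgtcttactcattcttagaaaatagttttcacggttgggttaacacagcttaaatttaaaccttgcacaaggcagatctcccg
Dab2 (second start): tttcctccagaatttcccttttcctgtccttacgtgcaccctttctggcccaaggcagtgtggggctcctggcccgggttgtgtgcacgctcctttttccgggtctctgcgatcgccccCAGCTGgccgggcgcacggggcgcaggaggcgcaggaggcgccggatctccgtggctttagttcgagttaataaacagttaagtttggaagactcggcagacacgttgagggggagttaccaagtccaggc
Krt7: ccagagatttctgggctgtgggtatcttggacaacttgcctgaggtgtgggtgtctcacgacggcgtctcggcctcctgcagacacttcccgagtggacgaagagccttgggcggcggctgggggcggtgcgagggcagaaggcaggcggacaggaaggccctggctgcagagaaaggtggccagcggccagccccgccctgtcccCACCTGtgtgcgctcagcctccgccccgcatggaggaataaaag

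Hand2 held 2 E-boxes. The one beginning 246 bases before the start is CAGATG read on the other strand, and the one at 235 bases is neither CAGATG nor CAGCTG. Kdr held CAGATG, beginning 179 bases before its start. Dab2 held the palindrome CAGCTG at 131 bases before its second start and 0 E-boxes before its first. Nkx2-5, which rose, and Krt7, which fell, each held a single E-box that is neither CAGATG nor CAGCTG, at 113 and 44 bases. Of 39 members 28 had at least 1 promoter in the table, with 36 windows in all. CAGATG on either strand was in 4 of these 36 windows (11.1%) and CAGCTG in 5 (13.9%), beside 14.4% and 13.0% of all 32851 windows. Any CANNTG was in 23 of the 36 windows (63.9%) and in 66.2% of all windows. Such matches are letters in a short window and say nothing of binding; the immunoprecipitation samples were not analysed here.

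Of the 11 endoderm members 9 had a higher mean after induction, some of them near the floor, and 2 passed. Dab2, an endocytic adaptor required in visceral endoderm, went from 268.6 to 527 reads (1.96-fold, adjusted p = 2.0e-11) in the authors' deposited table. Gata4, a zinc finger factor of primitive endoderm and heart, went from 51.2 to 98.7 reads (1.93-fold, adjusted p = 0.0038) by the authors' test. Both folds are just under 2, so both calls end where at least a 2-fold change is asked. Over the 11 endoderm members 2 rose (18.2%) and 0 fell, a share close to the 19.1% of all genes. The induced mean was above the uninduced one in 9 of 11, beside 49.0% of all genes, with a median change of 0.65 (log2 of mean plus 1) that came to 0.35 with a pseudocount of 5. The 9 include Ttr (0 and 0.477 reads) and Cer1 (0.537 and 2.04 reads), where such differences are at the floor. Among the further endoderm genes given below, 10 of 23 had the higher mean after induction.

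The partners of Gata4 in primitive endoderm did not pass. Gata6 had means of 9.01 and 15.7 reads, Sox17 12.3 and 14.4, and Sox7 25.1 and 34.3 before and after induction, with authors' adjusted p of 0.54, 0.96 and 0.55. Foxa1, a pioneer factor of endoderm that is also made in ventral midbrain, had 4.61 and 16.4 reads (3.55-fold, adjusted p = 0.058) in the authors' deposited table and lay just outside the threshold, while Nkx2-5, with nearly the same means, lay just inside. When the authors' p-values were adjusted again over only those 14388 genes that averaged 10 or more, Foxa1 came to an adjusted p = 0.046. Foxa2, its relative in endoderm, notochord and floor plate, had 2.47 and 4.42 reads (adjusted p = 0.83) in the authors' deposited table.

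Genes made by differentiated or anterior endoderm were at or near 0. Afp, the fetal serum protein of visceral endoderm, had 0.537 reads before and was listed at 0 after induction in the authors' deposited table. Ttr, the thyroid hormone carrier of the same tissue, was listed at 0 before and had 0.477 reads after. Cer1, a secreted antagonist of the anterior visceral endoderm, had 0.537 and 2.04 reads, and the adjusted p of the 3 genes was between 0.81 and 1 in the authors' deposited table. Hnf4a, a nuclear receptor of visceral endoderm and liver, had 21.2 and 10.1 reads (0.477 times, adjusted p = 0.18) by the authors' values, so that the mean of this endoderm regulator was lower while those of Gata4 and Gata6 were higher.

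Of the 11 trophectoderm members 9 had a lower mean after induction, and 3 of them passed. In the authors' deposited table Tcfap2c, the AP-2 factor of trophoblast and germ cells, went from 596.5 to 242.5 reads (0.406 times, adjusted p = 1.8e-20). Krt7, a keratin of simple epithelia and trophoblast, fell from 60.9 to 7.94 reads (0.130 times, adjusted p = 5.4e-09) by the authors' test, at percentile 0.15 of change among all genes. Tead4, the TEA-domain factor that starts trophectoderm in the mouse blastocyst, fell from 211.5 to 92.9 reads (0.439 times, adjusted p = 5.4e-08) in the authors' deposited table. In GENCODE M21 the antisense genes Gm671 and Gm18888 overlap exons of Krt7 and Dab2, respectively.

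The trophoblast selectors started low. Cdx2, the caudal homeobox gene that opposes Oct4, had means of 10.5 and 4.85 reads (0.463 times, adjusted p = 0.45) in the authors' deposited table. Elf5, the ETS factor of trophoblast stem cells, had 1.07 reads before and was listed at 0 after. Gata3, a trophoblast gene that also acts in neurons, had 21.2 and 23.3 reads (adjusted p = 0.95) in the authors' deposited table and was the member with a slightly higher mean. Ascl2, a helix-loop-helix factor of the spongiotrophoblast, had 17.0 and 6.33 reads (0.373 times, adjusted p = 0.27) in the authors' deposited table. The ratio of Ascl2 was below that of Tcfap2c, yet at this level it did not pass.

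Placental genes were close to the floor as well. Esx1, an X-linked homeobox gene of the labyrinth, had 21.1 and 12.6 reads, Plac1 3.93 and 2.47, and Gcm1, which forms syncytiotrophoblast, 8.33 and 6.55, with authors' adjusted p of 0.40, 0.91 and 0.91. Tpbpa, the defining gene of the spongiotrophoblast, was listed at 0 in both groups. Of the 10 trophectoderm members with a p-value 3 fell (30.0%, beside 16.4% of all genes), 0 rose and 9 had the lower mean after induction (90.0%, beside 51.0% of all genes). Their median change was -1.01 (log2 of mean plus 1), or -0.61 with a pseudocount of 5. The summed mean of the 11 genes went from 952 to 399 reads, most of it from Tcfap2c and Tead4. Both of these RNAs, like the stem cell markers of which 4 of 5 fell, are present in undifferentiated stem cells, and the part of stem cell loss in the result was not tested.

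**Figure D3:**
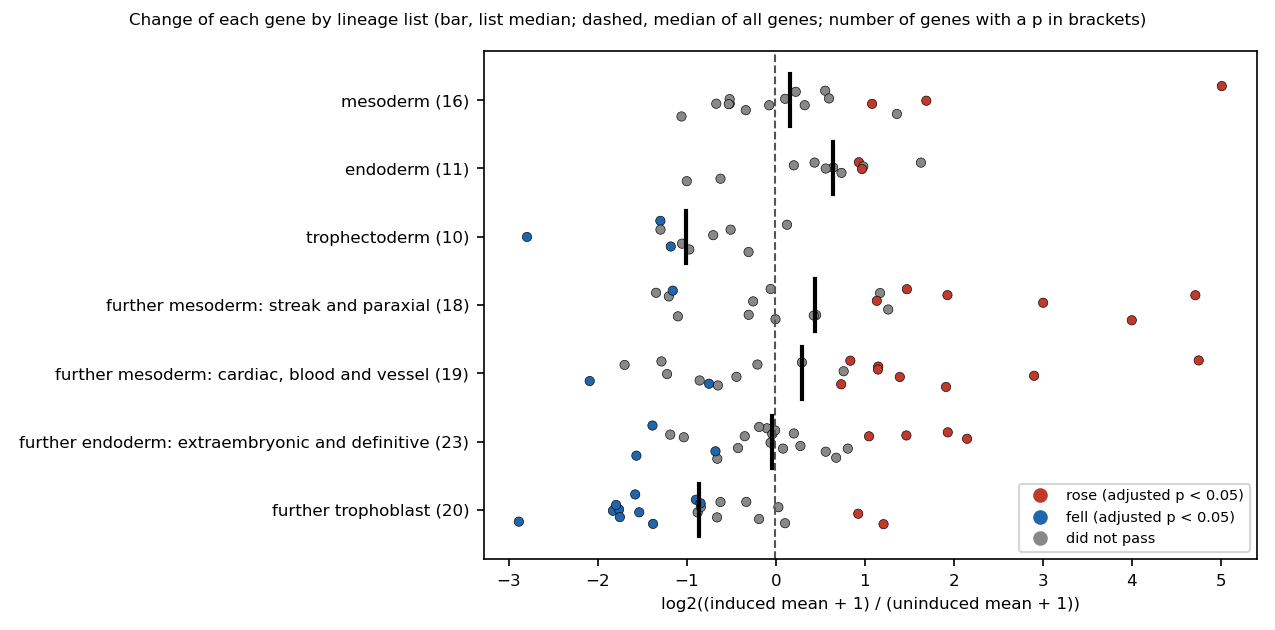
Change of each gene with a p-value (x axis, log2 ratio of induced to uninduced means, each plus 1) in the 3 marker lists and in 4 further lists of the same lineages; bars are list medians and the dashed line is the median of all genes. The trophectoderm median lies at -1.01 and the further trophoblast median at -0.86. The mesoderm median lies at 0.17 and the further mesoderm medians at 0.44 (streak and paraxial) and 0.29 (cardiac, blood and vessel). The endoderm median lies at 0.65 but the further endoderm median at -0.038.

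Paralogues of the trophectoderm factors, chosen after their values were seen, included genes that rose. Of 5 AP-2 genes 2 rose and 1 fell, and of 4 TEAD genes 2 rose and 1 fell, beside 19.1% of all genes that rose and 16.4% that fell. The TEAD genes all lay above 100 reads. At 100 to 1000 reads 45.2% of all genes passed, and at 1000 or more 55.4% did. Within the AP-2 family Tcfap2a, a gene of neural crest and surface ectoderm, rose from 25.3 to 59.9 reads (2.37-fold, adjusted p = 0.0034) in the authors' deposited table while Tcfap2c fell. Tcfap2d, which is made in midbrain, was listed at 0 before and had 6.94 reads after in the authors' deposited table (adjusted p = 0.030). Tcfap2b and Tcfap2e did not pass. Among the TEAD genes Tead2, a member common in neural precursors, rose from 2412 to 4581 reads (1.90-fold, adjusted p = 1.7e-30) and Tead1 from 6919 to 8056 (1.16-fold, adjusted p = 0.0086) in the authors' deposited table. Tead3 had 332 and 407 reads by the authors' values (adjusted p = 0.098), and Tead4 was the TEAD gene that fell. Of 6 GATA genes only Gata4 passed; Gata1 and Gata5, which are not among the 39 markers, had adjusted p-values of 0.64 and 0.75. Differences between the paralogues were not tested.

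**Figure D4:**
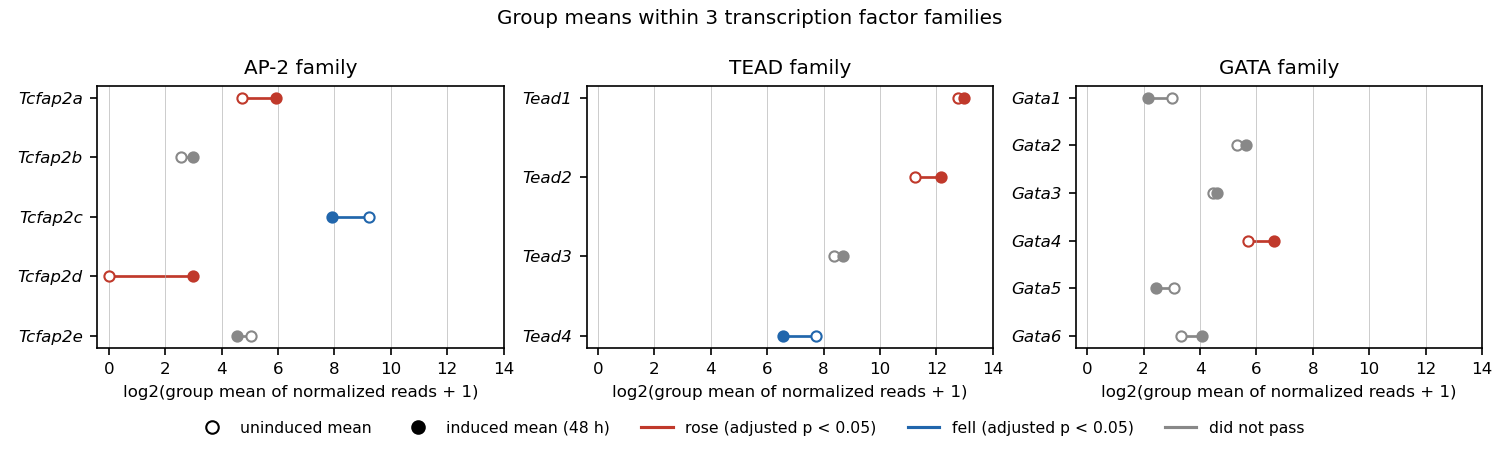
Group means within the AP-2, TEAD and GATA families, as log2 of normalized reads plus 1 (x axis). Open circles are uninduced and filled circles induced means, with no error since each is the authors' mean. In the first 2 families the gene from the trophectoderm marker list fell (Tcfap2c, Tead4), while Tcfap2a, Tcfap2d, Tead1 and Tead2 rose. Tcfap2a is itself in the further trophoblast list. Tcfap2b, Tcfap2e and Tead3 did not pass.

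Beyond the 39 genes, 86 further markers of the same lineages were counted in 4 lists, to be read beside the 19.1% of all genes that rose and the 16.4% that fell. Of 18 streak and paraxial genes 6 rose (33.3%) and 1 fell (5.56%), with a median change of 0.44 on the scale of log2 of the mean plus 1. Those with the smallest p were Pax3 (13.4 to 377 reads, adjusted p = 4.6e-21), Uncx (1.54 to 39.6 reads), Pdgfra (33.9 to 96.0 reads) and Lhx1 (2.47 to 26.8 reads) in the authors' deposited table. Pax3, Uncx and Lhx1 are genes of somites or nephric mesoderm that are also made in the neural tube. The gene that fell, Wnt3, a signal that starts the streak, had 75.3 and 33.3 reads (0.441 times, adjusted p = 0.0017) in the authors' deposited table. The muscle regulators Myod1, Myog and Myf6 had uninduced means of 2.00, 1.47 and 1.54 reads and did not pass.

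Of 19 cardiac, blood and vessel genes with a p-value 8 rose (42.1%) and 2 fell (10.5%), with a median change of 0.29. Isl1, a gene of heart precursors and of motor and sensory neurons, rose from 8.79 to 263 reads (29.9-fold, adjusted p = 3.3e-09) and the cardiac actin gene Actc1 from 71.9 to 190.6 (2.65-fold, adjusted p = 2.9e-09) in the authors' deposited table. Pecam1, an adhesion gene of endothelium and of stem cells, fell from 1262 to 296 reads (0.234 times, adjusted p = 9.4e-73) and Tek, an angiopoietin receptor, from 644 to 383 (adjusted p = 1.4e-08) by the authors' test. Flt1, another vessel receptor, rose from 124.7 to 208.3 reads (1.67-fold, adjusted p = 0.00056) in the authors' deposited table. The vessel receptors Kdr and Flt1 thus rose, while Tek fell. Tbx5 (1.93 to 20.9 reads), Mef2c (14.2 to 56.4 reads), Lmo2, Runx1 and Fli1 rose as well. The contractile genes Tnnt2, Myl7 and Myh6 did not pass the authors' test (adjusted p = 0.31, 0.061 and 0.069), each with the lower mean after induction.

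Among 23 further endoderm genes with a p-value 4 rose (17.4%) and 3 fell (13.0%), with a median change of -0.038. Apoe, a lipid carrier, fell from 11292 to 3816 reads (0.338 times, adjusted p = 8.1e-61) and the laminin gene Lamc1 from 15247 to 9540 (0.626 times, adjusted p = 2.1e-20) in the authors' deposited table. Col4a1 and Col4a2 of the basement membrane were among those that rose. Alb, the albumin gene of liver, was listed at 0 in both groups, and Pdx1, the gene of pancreatic endoderm, had 0.537 and 0.477 reads there.

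The further trophoblast list had 10 falls (50.0%) and 2 rises (10.0%) among 20 genes with a p-value, with a median change of -0.86. Most of the genes that fell had uninduced means above 100 reads, where more genes of any kind passed. Of all genes at 100 to 1000 reads 20.5% fell and 24.7% rose, and at 1000 or more 27.6% fell and 27.8% rose. Slc2a3, a glucose transporter of trophoblast and stem cells, fell from 44363 to 13187 reads (0.297 times, adjusted p = 3.9e-109) and the imprinted placental gene Phlda2 from 830 to 244 (0.295 times, adjusted p = 1.3e-42) in the authors' deposited table. Cdh3, the placental cadherin, fell from 3616 to 1943 reads (0.537 times, adjusted p = 4.2e-27) by the authors' test. The other genes that fell included Krt8, Krt18 and Krt19, which like Krt7 are keratins of simple epithelia. Peg10, an imprinted retrotransposon-derived gene of placenta, rose from 8567 to 16287 reads (1.90-fold, adjusted p = 2.2e-37) in the authors' deposited table, and the other rise was Tfap2a, described above as Tcfap2a. Prl2c2, Prl3b1, Ctsq and Synb, which mark differentiated placental cells, were listed at 0 in both groups.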

How the data were processed

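Per the submitters' processing notes the RNA data involved build mm9, DESeq, HTSeq 0.5.4p1, SAMtools 0.1.19, TopHat2 2.0.8 and FastQC 2.6.14, with no role or order given. The authors' deposited table holds group means of normalized reads (a signal that is never negative), their ratio as fold change, its log2, and DESeq p-values with Benjamini-Hochberg adjustment over 18283 genes. That adjustment was recomputed and matched for 100% of genes at a relative tolerance of 1e-06. The 4 library columns of another deposited table match no sample label and were not used, so library depth and spread are not given here, and fits that need libraries (limma, edgeR, a replicate block) were not run. Changes were computed as log2 of the means with a pseudocount of 1, which understates those of low genes.

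Members and lists were chosen with earlier results of these data known. All 39 members are named; in each further list up to 4 called genes with the smallest adjusted p are named, and any sole call in its direction. Family, autonomic and crest lists, and other genes named from the further lists, were chosen after their values were seen. Older symbols were matched through RefSeq synonyms (GRCm38.p6). Motifs were searched in the 250 bases before each RefSeq start. The adjustment was tested on simulated data. Tools were numpy 2.4.6, pandas 2.3.3, matplotlib 3.10.9 and scipy 1.17.1 under Python 3.11.15. The 3 DNA samples were not analysed here.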

Additional observations from a re-analysis of the deposited data

How the results depend on the processing

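No paired analysis was possible because the library columns carry no replicate number; tests without single libraries, limma, edgeR and quantile normalization were not run for the same reason. Of the members 5 rose and 3 fell as deposited, and the rises came to 3 at a minimum mean of 50, 3 at an adjusted p of 0.01 (without Kdr and Nkx2-5) and 3 at a 2-fold minimum (without Gata4 and Dab2). The 3 falls held at 0.01 and at 2-fold, and 2 remained at a minimum mean of 50 (without Krt7). Adjusted over genes with a mean of at least 10, 6 rose, with Foxa1 added. Over all genes the 2-fold minimum left 1367 rises and 767 falls. At a minimum mean of 50 the further lists had 11 rises in place of 20, while their falls stayed at 16. A minimum mean leaves out genes, and the settings of 0.01 and 2-fold are stricter calls, so none of them can add a call.

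Medians have no replicate spread, and a shift of 0.1 or more on the log2 scale was taken as moved. The mesoderm median was 0.28 at a minimum mean of 10 and turned to -0.073 at a minimum of 50, which leaves few genes. The endoderm median was 0.95 at a minimum mean of 50, which leaves only Gata4 and Dab2, the endoderm members that passed. It was 0.77 with a pseudocount of 0.5 and 0.35 with 5. The trophectoderm median was -1.24 at either minimum, although only Tcfap2c and Tead4 remain at 50, and -0.61 with a pseudocount of 5. Equal totals moved no median by 0.1. Genes below 10 reads were rarely callable.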

Other observations

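Hand2 and Gata2 are used by autonomic neurons as well as by mesoderm, so genes of sympathetic and enteric neurons were listed. The 10 genes other than Hand2 itself were chosen after their values were seen. Their counts are therefore a description, and the list was not tested. Of the 10 genes 5 rose, 0 fell and 5 did not pass, beside 19.1% of all genes that rose and 16.4% that fell. In the authors' deposited table Chrna3, the nicotinic receptor subunit of ganglia, rose from 8.47 to 775 normalized reads and Ret, the GDNF receptor, from 62.2 to 535 reads. Tlx2, a homeobox gene of enteric neurons, was listed at 0 before and had 30.5 reads after, and Dbh, the enzyme that makes noradrenaline, rose from 7.47 to 27.7 reads (adjusted p = 0.0073) in the authors' deposited table. Phox2a, Gata2, Gata3, Th and Ddc did not pass. Th, which encodes the enzyme at the head of the same pathway, had 4.69 and 7.37 reads (adjusted p = 0.75) in the authors' deposited table.

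Of 9 neural crest genes, also chosen after their values were seen and not tested as a list, 5 rose and 0 fell, beside the same shares of all genes. Pax3, Pax7 and Tcfap2a are also among the rises of the lists above. Sox9 rose from 4.40 to 47.7 reads (10.8-fold) and Snai2 from 15.9 to 62.4 reads (3.91-fold) in the authors' deposited table. The crest genes Sox10 and Foxd3 did not pass, with 30.6 and 21.5 reads and 160.6 and 136.3 reads, respectively, before and after induction in the authors' deposited table.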
